A study of Homo sapiens with 52 samples.

Results

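WI-38 cells after detergent damage (PMD-Sen) and after potassium chloride (Ca2+-Sen) were compared directly at the last sampled time, day 16. The paper names both senescent. WI-38 is a line of normal human lung fibroblasts that divides a limited number of times. PMD-Sen cells had been exposed for 24 h to 0.0090% SDS, a detergent that damages the plasma membrane, and Ca2+-Sen cells for 24 h to medium with 75 mM KCl, which opens calcium channels of the plasma membrane. Both were then washed and kept in fresh medium. The untreated controls, shared by both, were young cells (PDL 32 to 46). Each of the 3 groups had 2 mRNA-seq libraries, so 4 treated libraries of the 52 in the series carry the comparison. The DDR-Sen cells (250 nM DXR for 24 h, day 16) and the RS cells, passaged until they stopped dividing around PDL 52, are given only as values beside it. Every gene with a mean of at least 10 normalized read counts in the tables of both treatments was a member, which gave 14413 of 59408 genes. At that limit, HADHAP2 (means of 11.7 and 10.0 in the PMD-Sen and Ca2+-Sen tables) was just inside and RPL37A-DT (9.998 and 10.5) just outside. Differences are PMD-Sen minus Ca2+-Sen on the log2 scale, so a negative value is a lower level in PMD-Sen.

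Senescent cells leave the cell cycle for good. The RB family and the DREAM complex, which act downstream of the CDK inhibitors p21 and p16, keep the genes for DNA replication and mitosis silent, and lamin B1 is lost from the nuclear lamina. Senescent fibroblasts also secrete cytokines, growth factors, proteases and matrix proteins, a mixture named the senescence-associated secretory phenotype. A breach of the plasma membrane lets calcium into the cell, and the KCl treatment gives a calcium influx without the detergent. The direct comparison asks where the cells after SDS and after KCl differ on day 16. Whether all cells of both groups were senescent by then was not tested.

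The level of every library was recovered from the deposited tables as whole reads for 14363 of the 14413 genes, and is given as reads over the authors' size factors, scaled so that the 2 untreated factors average 1. The libraries of a group are called a and b, since they could not be tied to the labels' replicate numbers. They held between 15.3 M (untreated b) and 33.0 M reads (PMD-Sen a). Genes without recovered reads held 4.53 M and 4.06 M of these in PMD-Sen a and b, and 2.55 M and 2.48 M in Ca2+-Sen. All 14 fibroblast markers stood above 100 normalized read counts in both groups. Of the markers of other cells, 3 of 10 for epithelium, 2 of 8 for endothelium and 0 of 6 for neurons reached 100 in either group, and KRT5, CDH5, PTPRC and MYH11 stood below 1 in both. The summed levels were 2021 in PMD-Sen and 1954 in Ca2+-Sen for epithelium, 3422 and 2470 for endothelium, 290 and 287 for neurons, 147 and 40.8 for white blood cells (10 genes, 8 and 9 of them below 1), and 12579 and 16026 for smooth muscle and pericytes (6 of 8 at 100 or above). CD14 had 75.8 and 207 in PMD-Sen a and b and 42.6 and 35.2 in Ca2+-Sen, and its difference did not pass the test (adjusted p = 0.243). The smooth muscle and pericyte markers SMTN (-0.69) and CSPG4 (-0.70) were lower in PMD-Sen. Of the 6 tested markers of that kind, 3 had both PMD-Sen libraries below both Ca2+-Sen libraries and 2 had them above. Of 3 tested endothelial markers, 1 had them above. Over all genes with reads, the shares were 32.6% below and 28.9% above. The part of these markers in the results was not tested. The PMD-Sen libraries differed from each other more than those of Ca2+-Sen or untreated cells. Among genes with a level of at least 100, 133 of 9922 differed more than 2-fold between PMD-Sen a and b, against 20 of 9981 in Ca2+-Sen and 53 of 9991 in untreated cells. Library b lay further from Ca2+-Sen than library a for 252 of the 298 genes called lower and 85 of the 112 called higher, and the counts of the gene lists are therefore also given without it. Of 80 named genes that were called and had reads, 21 kept the call without library b and 75 without library a.

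Of the 14413 genes, 412 (2.86%) differed between PMD-Sen and Ca2+-Sen at an adjusted p-value under 0.05. Lower genes were the more frequent: 298 (2.07%) were lower in PMD-Sen and 114 (0.791%) were higher. These shares over all genes are the background for the called counts of every list below. The test was the difference of the 2 deposited log2 fold changes over their combined standard errors, with Benjamini-Hochberg adjustment over all genes. It counts the error of the untreated libraries although they cancel in the difference, and with that part removed 1600 genes passed. Without PMD-Sen library b, 77 genes remained past the threshold, 33 higher and 44 lower, and without library a 513. The median size of a called difference was 1.93-fold in both directions, and the smallest was 0.45 on the log2 scale. In every called gene with reads, 298 lower and 112 higher, both PMD-Sen libraries lay beyond both Ca2+-Sen libraries. Over all genes with reads, this was so for 32.6% in the lower and 28.9% in the higher direction. The calls were made from these same libraries, so the lack of overlap in called genes is no separate support for them.

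**Figure D1:**
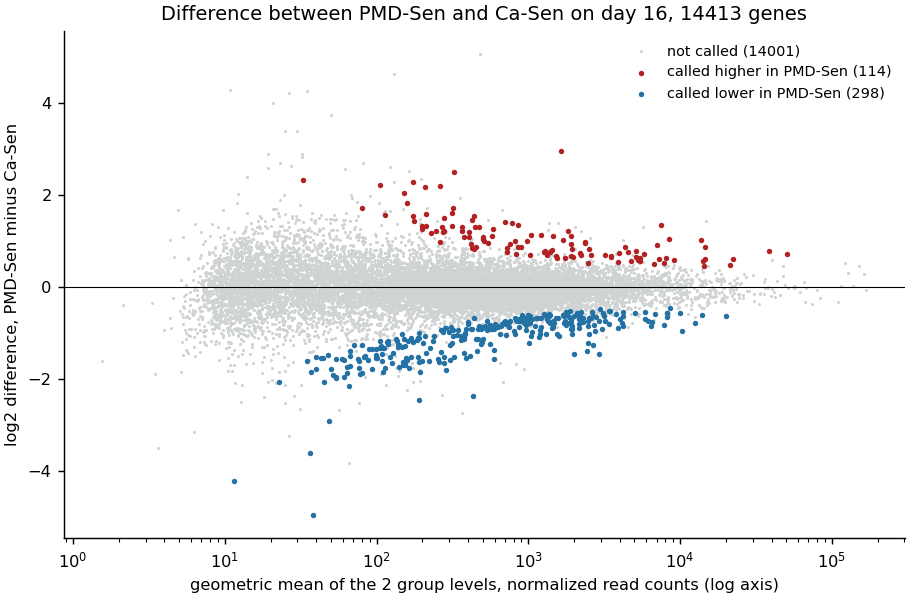
Log2 difference between PMD-Sen and Ca2+-Sen on day 16 (vertical axis) against the geometric mean of the 2 group levels in normalized read counts (horizontal log axis), 1 point for each of 14413 genes. Ca2+-Sen is written Ca-Sen in the plots. The 298 genes called lower (blue) outnumber the 114 called higher (red), and the size a gene needed to be called grew smaller as its level rose.

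The lower genes were mostly ones that had fallen after both treatments. Against untreated cells, 158 of the 298 were lower in both PMD-Sen and Ca2+-Sen, and 120 were lower in PMD-Sen and not called in Ca2+-Sen. Of the 114 higher genes, 57 were higher in PMD-Sen and not called in Ca2+-Sen, and 46 were higher in both. Opposite calls were few, 5 lower in PMD-Sen and higher in Ca2+-Sen, and 3 the other way. Set against untreated cells, PMD-Sen gave 1414 higher (9.81%) and 1733 lower (12%) genes, and Ca2+-Sen 869 (6.03%) and 916 (6.36%). The 2 sets of values share the untreated libraries.

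Genes of mitosis made up the largest group. Of the 63 tested genes for spindle, kinetochore and cytokinesis, 42 were lower in PMD-Sen and 0 higher, and the median difference was -1.64, beside -0.01 over all genes tested. Both treatments had lowered these genes: the median change against untreated cells was -2.85 in PMD-Sen and -1.09 in Ca2+-Sen, with 62 and 59 of 63 past the test. In bulk RNA, fewer dividing cells and less of these RNAs per cell cannot be told apart. The libraries of PMD-Sen stood at -2.32 (a) and -3.40 (b), with 62 of 63 genes higher in a, while those of Ca2+-Sen stood at -1.09 and -1.07. Without library b the median difference was -1.21 and 5 genes were called, and without library a it was -2.27 with 54 called.

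CENPE, the kinesin that moves chromosomes along the spindle, had the largest difference of the list among precisely measured genes. Its levels were 112 and 48.8 in PMD-Sen a and b, 397 and 494 in Ca2+-Sen, and 846 and 976 in untreated cells. The 3 groups did not overlap, and the PMD-Sen level was 0.181 of that in Ca2+-Sen (95% interval 0.114 to 0.288, log2 difference -2.46, SE 0.34, adjusted p = 1.11e-09). NUF2 and NDC80 encode partners in the kinetochore complex that holds microtubules. NUF2 had 42.2 and 11.9 in PMD-Sen, 106 and 108 in Ca2+-Sen, and 233 and 280 in untreated cells. NDC80 had 62.6 and 20.4, 157 and 149, and 316 and 329 in the same order. In both genes the order of the groups was the same, and PMD-Sen b was the lowest library. NEK2, a centrosome kinase, had 35.6 and 17.02 in PMD-Sen against 97.8 and 101 in Ca2+-Sen. PLK4, which starts centriole duplication, differed by -1.88 (SE 0.43, adjusted p = 0.00146), and NCAPH of the condensin complex by -1.89. Outside the list, ERCC6L, a DNA translocase at anaphase bridges, differed by -1.96, and IQGAP3, a scaffold protein of dividing cells, had 137 and 66.4 in PMD-Sen against 357 and 382 in Ca2+-Sen. MKI67, which encodes the proliferation marker Ki-67, had 478 and 191 in PMD-Sen, 1291 and 1500 in Ca2+-Sen, and 3320 and 2599 in untreated cells, and its difference of -2.06 (SE 0.65) missed the threshold (adjusted p = 0.0544).

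**Figure D2:**
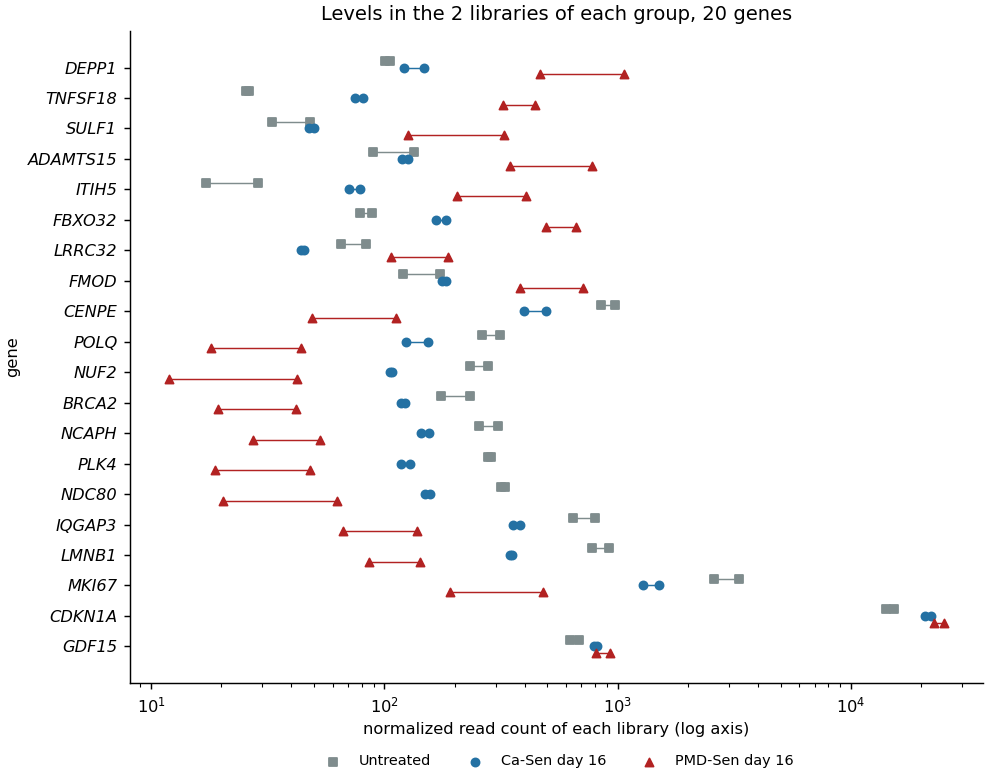
Normalized read counts (horizontal log axis) of 20 genes in the 2 libraries of untreated, Ca2+-Sen and PMD-Sen cells, with a line joining the libraries of a group. From CENPE to LMNB1 the PMD-Sen points lie left of Ca2+-Sen and those left of untreated, as in MKI67, which missed the threshold; in CDKN1A and GDF15 the treated groups lie close together.

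Mitotic genes are known to share 2 short promoter elements, the CHR (cell cycle genes homology region, searched as TTTGAA or TTCAAA) bound by DREAM and the CCAAT box (searched as CCAAT or ATTGG) bound by NF-Y. In the 250 bases upstream of the RefSeq start (GRCh38.p14), which were found for 35 of the 42 called mitotic genes, 45.7% held a CHR and 74.3% a CCAAT box. Among the 10337 tested genes with such a stretch these shares were 8.46% and 34.9%, and among all 27305 stretches of that length 13.6% and 33.0%. Both elements together were found in 40% of the called mitotic genes, in 14.3% of the 238 genes called lower, in 2.33% of the 86 called higher and in 3.39% of the tested genes. The 10 called genes of DNA replication held a CHR in 0 and a CCAAT box in 7. A search for GTAAACA or its reverse complement, the core site of FOXO factors, found it in 3 of the 86 genes called higher (3.49%) and in 1.86% of those tested. These are matches of letters, not sites shown to be bound. Of the 34 genes called lower that held both elements, 14 were in the mitotic list. The share among mitotic genes that were not called was not counted, so these shares cannot tie the elements to the difference between the treatments. The 3 called mitotic genes with the largest difference among those holding both elements, chosen after their values were seen, are CDC20, which activates the anaphase-promoting complex, CENPA, the histone H3 variant of centromeres, and CKAP2L, a spindle protein. Their upstream stretches are shown 5′ to 3′ on the strand of the gene with the elements in capitals, which overlap in none of them. CDC20 lies on the plus strand (chr1:43358731-43358980), CENPA on the plus strand (chr2:26785806-26786055) and CKAP2L on the minus strand (chr2:112764610-112764859).
CDC20: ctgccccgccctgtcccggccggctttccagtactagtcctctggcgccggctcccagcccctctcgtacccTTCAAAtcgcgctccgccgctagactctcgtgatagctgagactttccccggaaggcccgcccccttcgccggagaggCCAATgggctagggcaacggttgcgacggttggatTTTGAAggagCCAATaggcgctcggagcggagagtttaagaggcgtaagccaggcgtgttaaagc
CENPA: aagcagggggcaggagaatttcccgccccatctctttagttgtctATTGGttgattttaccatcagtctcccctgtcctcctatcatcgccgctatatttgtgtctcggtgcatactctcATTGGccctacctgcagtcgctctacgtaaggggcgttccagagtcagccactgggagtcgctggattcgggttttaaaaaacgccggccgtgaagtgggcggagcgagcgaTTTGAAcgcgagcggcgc
CKAP2L: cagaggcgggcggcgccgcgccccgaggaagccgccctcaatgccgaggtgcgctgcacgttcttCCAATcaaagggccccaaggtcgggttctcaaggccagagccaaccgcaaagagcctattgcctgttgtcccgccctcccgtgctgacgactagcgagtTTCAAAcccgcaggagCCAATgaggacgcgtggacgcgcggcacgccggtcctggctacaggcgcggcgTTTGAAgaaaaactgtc
CDC20 had 207 and 102 normalized read counts in PMD-Sen a and b, 505 and 572 in Ca2+-Sen and 1261 and 1144 in untreated cells. CENPA had 29.5 and 13.05, 63.0 and 84.6, and 178 and 146. CKAP2L had 71.2 and 29.5, 182 and 164, and 371 and 381. The groups kept this order without overlap in all 3 genes, and the differences were -1.80, -1.78 and -1.77 (SE 0.30, 0.50 and 0.39).

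Genes of DNA replication were lower in PMD-Sen to a smaller extent. Of 47 tested, 10 were called lower and 0 higher, with a median difference of -0.70, and the median change against untreated cells was -1.58 in PMD-Sen and -0.82 in Ca2+-Sen. Without PMD-Sen library b, 2 were called. MCM10, which loads the replicative polymerase machinery, had 35.6 and 18.2 in PMD-Sen, 101 and 84.6 in Ca2+-Sen and 279 and 213 in untreated cells (difference -1.78, SE 0.43, adjusted p = 0.00327). ORC1, the largest subunit of the origin recognition complex, differed by -1.62, DTL, the adaptor that marks CDT1 for destruction in S phase, by -1.61. Outside the list, POLQ and BRCA2, which repair double-strand breaks, differed by -2.15 and -1.97. BRCA2 had 41.7 and 19.3 in PMD-Sen, 118 and 122 in Ca2+-Sen, and 233 and 175 in untreated cells.

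Among 22 regulators of the E2F, RB and DREAM network, 4 were lower and 0 higher: MYBL2, FOXM1, E2F7 and CDK6. Of the 22, 1 was called without PMD-Sen library b. FOXM1, the transcription factor of G2 and mitosis, had 198 and 152 in PMD-Sen, 533 and 527 in Ca2+-Sen, and 1052 and 1207 in untreated cells (difference -1.60, SE 0.23, adjusted p = 1.34e-08). MYBL2, its partner on the same promoters, had 81.9 and 32.9 in PMD-Sen against 225 and 190 in Ca2+-Sen. E2F7, a repressor of the E2F genes, differed by -1.13. The inhibitors of CDKs that define senescence did not pass the test. CDKN1A, which encodes p21, had 22645 and 25016 in PMD-Sen, 22116 and 20777 in Ca2+-Sen, and 14099 and 15232 in untreated cells, a difference of 0.15 (SE 0.15, adjusted p = 0.962). The 95% interval of its ratio ran from 0.905 to 1.36. CDKN2A, the gene of p16, had 651 and 735 in PMD-Sen and 546 and 515 in Ca2+-Sen (difference 0.39, SE 0.23, adjusted p = 0.612). The 2 members of that list of 8 that were called, CDKN3 (-1.60) and CDKN2C (-1.35), were lower, and CDKN3 is itself a phosphatase expressed in dividing cells. Leaving out PMD-Sen library b, 0 of these 8 genes were called. Of 29 tested p53 targets, 1 was called, beside 2.86% of all genes. This was TP53INP1, a stress protein of the nucleus and of autophagy, at 1738 and 1653 in PMD-Sen and 1038 and 1051 in Ca2+-Sen (0.70, SE 0.19, adjusted p = 0.0147). It was not called without PMD-Sen library b. GDF15, a secreted p53 target, had 804 and 923 in PMD-Sen and 789 and 819 in Ca2+-Sen (0.10, SE 0.21).

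LMNB1, whose loss is a usual mark of senescence, had 142 and 85.7 in PMD-Sen a and b, 354 and 346 in Ca2+-Sen, and 919 and 780 in untreated cells. Both treatments had lowered it, and the PMD-Sen level was 0.327 of that in Ca2+-Sen (95% interval 0.222 to 0.482, difference -1.61, adjusted p = 8.98e-06). Of the 18 lamina and HMG genes, 5 were lower in PMD-Sen and 0 higher, and without PMD-Sen library b 1 was called. HMGA2, an architectural chromatin protein, had 2225 and 1697 in PMD-Sen, 3820 and 3836 in Ca2+-Sen, and 5720 and 5968 in untreated cells. HMGB2, which is known to fall at the start of senescence, differed by -0.92 (SE 0.25).

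Of 30 tested genes of growth factors and their receptors, 7 were lower in PMD-Sen and 1 higher, with a median difference of -0.27. Among all genes, 2.07% were lower and 0.791% higher. FGF5, a ligand of FGF receptors, had 2076 and 1465 in PMD-Sen, 4835 and 4881 in Ca2+-Sen, and 4860 and 4734 in untreated cells. Its Ca2+-Sen and untreated levels thus lay together and PMD-Sen lay below both (difference -1.46, SE 0.20, adjusted p = 7.31e-10). HBEGF, a ligand of the EGF receptor, had 105 and 110 in PMD-Sen and 242 and 243 in Ca2+-Sen (-1.17, SE 0.30). EREG, another ligand of that receptor, was at 320 and 222 in PMD-Sen and 257 and 323 in untreated cells, and higher, at 543 and 536, in Ca2+-Sen (-0.99, SE 0.30). FGF1 (-0.95), VEGFC (-0.84), ANGPT1 (-0.82) and HGF (-0.57) were lower as well, and ANGPTL2, a secreted inflammatory factor of the angiopoietin family, was higher (0.87). Without PMD-Sen library b, 2 of the 30 passed.

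Among the listed interleukins, chemokines and feedback genes, 1 difference passed the test. TNFSF18, a ligand outside these lists, was also called and is given below. IL11, a cytokine that fibroblasts make after TGF-beta, was the 1 of 25 tested interleukins and feedback genes that was called. It had 162 and 165 in PMD-Sen, 471 and 465 in Ca2+-Sen, and 605 and 657 in untreated cells (difference -1.52, SE 0.23, adjusted p = 1.05e-07). The libraries of each group were close together, and PMD-Sen was lower in both. IL6 had 59.5 and 130 in PMD-Sen and 55.2 and 47.6 in Ca2+-Sen (0.88, SE 0.61, adjusted p = 0.774), and the libraries of PMD-Sen were further apart than the groups. CCL2 had 939 and 1426 in PMD-Sen and 1102 and 1014 in Ca2+-Sen, so that the groups overlapped (0.16, SE 0.30). The 6 chemokines tested all had a positive difference, with a median of 0.79. In 3 of them both PMD-Sen libraries lay above both Ca2+-Sen libraries, as in 28.9% of all genes with reads. Their median change against untreated cells was 0.52 in PMD-Sen a and 1.46 in b, and 0 of the 6 were higher in a than in b. Of the 6 chemokines, 0 passed, with 1 higher at an unadjusted p under 0.05 and 0 called by limma-trend. Of 10 genes of MHC class I presentation, 0 passed, with 2 higher at an unadjusted p under 0.05 and 1 by limma-trend. Among inhibitors of other ligands, FST, which binds activin, had 1877 and 1574 in PMD-Sen, 4142 and 4149 in Ca2+-Sen, and 6298 and 6643 in untreated cells (-1.26, SE 0.17, adjusted p = 1.36e-10). DKK1, the WNT antagonist, had 443 and 281 in PMD-Sen and 643 and 698 in Ca2+-Sen (-0.89). NBL1, a secreted BMP antagonist, went the other way, with 2415 and 3163 in PMD-Sen, 1260 and 1130 in Ca2+-Sen, and 1116 and 1202 in untreated cells (1.22, SE 0.21, adjusted p = 2.33e-06).

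Of 31 matrix protease and inhibitor genes, 4 were higher (TIMP1, PLAT, CTSB and TIMP3) and 0 lower, beside 0.791% and 2.07% of all genes. TIMP1 was the 1 still called without PMD-Sen library b. TIMP1, the inhibitor of matrix metalloproteinases, had 19031 and 19791 in PMD-Sen, 9756 and 9359 in Ca2+-Sen, and 14982 and 15282 in untreated cells. It was thus above untreated cells in PMD-Sen (0.36, adjusted p = 0.0193) and below them in Ca2+-Sen (-0.66), and the PMD-Sen level was 2.03 times that in Ca2+-Sen (95% interval 1.68 to 2.46, adjusted p = 1.11e-09). PLAT, the tissue plasminogen activator, had 18641 and 17374 in PMD-Sen against 12097 and 11649 in Ca2+-Sen. Of 16 complement genes, 2 were higher and 0 lower, with a median of 0.51. SERPING1, the inhibitor of the C1 proteases, had 445 and 705 in PMD-Sen, 236 and 229 in Ca2+-Sen, and 182 and 178 in untreated cells (1.31, SE 0.33). C1S, one of those proteases, had 8839 and 15364 in PMD-Sen a and b and 5977 and 5852 in Ca2+-Sen (1.03, SE 0.24). Neither was called without PMD-Sen library b. In the IGF axis, IGFBP2 and IGFBP4, which bind the ligands outside the cell, were higher by 1.35 and 0.78, and 0 of 17 genes were lower. IGFBP2 was not called without that library, and the reads of IGFBP4 in PMD-Sen were not recovered.

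Among 21 fibrillar and associated collagens, 0 were called and 3 were higher at an unadjusted p under 0.05. Limma-trend, which covered the 16 with recovered reads, called 0. LAMA4, a laminin chain of basement membranes, had 8839 and 10495 in PMD-Sen, 5135 and 5182 in Ca2+-Sen, and 5269 and 5167 in untreated cells (0.91, SE 0.16, adjusted p = 8.98e-06). LAMB1 (0.56) and COL4A6 (1.03) were also higher, and COL4A1 was lower (-0.56), out of 19 basement membrane genes, of which LAMA4 kept its call without PMD-Sen library b. FMOD, a proteoglycan that binds collagen fibrils, had 380 and 713 in PMD-Sen, 176 and 183 in Ca2+-Sen, and 120 and 173 in untreated cells (1.6, SE 0.40). LTBP3, which stores latent TGF-beta in the matrix, was higher by 0.66. TGFBI, a TGF-beta induced matrix protein, had 18441 and 21081 in PMD-Sen, 10696 and 10939 in Ca2+-Sen, and 22141 and 25029 in untreated cells. Here Ca2+-Sen was the group that lay apart from untreated cells (-1.12), and the change in PMD-Sen did not pass the test (-0.26).

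Among genes with a level of at least 100 and standard errors of at most 0.5, those with the largest positive differences came from several pathways. DEPP1, a FOXO target that regulates autophagy, had 466 and 1067 in PMD-Sen, 148 and 121 in Ca2+-Sen, and 100 and 106 in untreated cells. The PMD-Sen level was 5.69 times that in Ca2+-Sen (95% interval 3.17 to 10.2, difference 2.51, SE 0.43, adjusted p = 3.81e-06). TNFSF18, the ligand of the co-stimulatory receptor GITR, had 321 and 441 in PMD-Sen, 75.0 and 80.9 in Ca2+-Sen, and 26.2 and 25.4 in untreated cells, higher than untreated in both treatments. SULF1, which removes sulfates from heparan sulfate outside the cell, had 126 and 327 in PMD-Sen and 49.8 and 47.6 in Ca2+-Sen, and ADAMTS15, a matrix protease, 347 and 774 against 127 and 119. ITIH5, a protein that binds hyaluronan, differed by 2.04, ATP8B4, a flippase of membrane lipids, by 1.84, and FBXO32, the muscle ubiquitin ligase atrogin-1 and a FOXO target, by 1.72. FBXO32 had 665 and 491 in PMD-Sen, 166 and 185 in Ca2+-Sen, and 88.7 and 78.5 in untreated cells. LRRC32, which anchors latent TGF-beta at the cell surface, had 106 and 187 in PMD-Sen, 43.8 and 45.1 in Ca2+-Sen and 83.3 and 65.2 in untreated cells (1.72, SE 0.52, adjusted p = 0.0368). In DEPP1, SULF1 and ADAMTS15, library b of PMD-Sen stood more than 2-fold above library a, and of the genes of this paragraph DEPP1, TNFSF18 and FBXO32 were called without it.

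Calcium handling, ion balance and membrane repair are the processes closest to the 2 treatments. Of 46 genes of calcium pumps, channels and calcineurin feedback, 1 was higher and 3 lower, with a median of -0.07. Among all genes, 0.791% were higher and 2.07% lower. ATP2B1, the plasma membrane pump that expels calcium, had 869 and 951 in PMD-Sen, 1838 and 1870 in Ca2+-Sen, and 1969 and 1986 in untreated cells, so PMD-Sen was the group that lay apart (difference -1.03, SE 0.17, adjusted p = 1.53e-06). SLC8A1, the sodium-calcium exchanger, had 399 and 370 in PMD-Sen against 715 and 767 in Ca2+-Sen (-0.94). TRPV2, a cation channel, was lower by 0.79 in size, at 1264 and 986 in PMD-Sen, 1984 and 1898 in Ca2+-Sen, and 738 and 841 in untreated cells, and RCAN2, an inhibitor of calcineurin, was higher (0.99). Of 30 osmotic and ion balance genes, SLC6A6, the taurine transporter, was higher (0.71), and ATP1B1, a subunit of the sodium pump (-0.84), and LRRC8C, of volume-regulated anion channels (-0.75), were lower. ATP2B1 was the 1 calcium gene still called without PMD-Sen library b, and 0 of the ion balance genes were. The call of LRRC8C (adjusted p = 0.0491) was lost when differences were centred on their median. Of 44 genes of ESCRT complexes, annexins and ferlins, which repair the plasma membrane, 0 were called. Over all genes 2.86% were called, and the median difference of the repair genes was 0.03. At an unadjusted p under 0.05, 3 of them were lower and 0 higher, and limma-trend called 1 lower.

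Genes of the cytoskeleton and of adhesion were mixed. Of 33 actin and SRF genes, 3 were lower (PDLIM5, CALD1 and ACTG2) and 1 higher (MYOCD), with a median of -0.22. Among all genes, 2.07% were lower and 0.791% higher. PDLIM5, a protein of actin stress fibres, had 1116 and 1043 in PMD-Sen, 2151 and 2215 in Ca2+-Sen, and 2347 and 2454 in untreated cells (-1.02, SE 0.16, adjusted p = 1e-06). CALD1, which encodes caldesmon, had 17709 and 14768 in PMD-Sen against 24701 and 25299 in Ca2+-Sen. MYOCD, a cofactor of SRF, had 167 and 415 in PMD-Sen and 122 and 92.0 in Ca2+-Sen (1.45, SE 0.45, adjusted p = 0.0454). Among 34 adhesion receptors, ITGA2, a collagen receptor subunit, was lower (-0.90) together with ITGA5 (-0.46) and ALCAM (-0.56), and the collagen receptor subunit ITGA11 was higher (0.73). DSP, which encodes desmoplakin and links junctions to intermediate filaments, had 378 and 378 in PMD-Sen, 166 and 158 in Ca2+-Sen, and 209 and 256 in untreated cells (1.23, SE 0.30, adjusted p = 0.00404). NT5E, the ectoenzyme CD73, was lower by 0.79 in size, at 10663 and 8404 against 16637 and 16239. FOSL1, a subunit of AP-1, was the 1 called of 31 immediate early genes (-0.91, SE 0.19), and PMAIP1, a BH3-only protein, the 1 of 14 of the BCL2 family (-0.95, SE 0.24). PDLIM5 and DSP kept their calls without PMD-Sen library b, and FOSL1, PMAIP1, NT5E, MYOCD, CALD1 and ITGA2 did not.

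Of 33 NRF2 and metallothionein genes, 4 were higher and 1 lower, beside 0.791% and 2.07% of all genes. GPX3, a secreted glutathione peroxidase, had 570 and 926 in PMD-Sen, 253 and 262 in Ca2+-Sen, and 99.5 and 115 in untreated cells (1.54, SE 0.35). SOD3, the extracellular superoxide dismutase, differed by 1.31 and AKR1C1, a ketosteroid reductase, by 1.13. AKR1C1 had 2092 and 1508 in PMD-Sen, 856 and 787 in Ca2+-Sen, and 359 and 392 in untreated cells. AKR1C2 (1.08) is a near-identical copy of it, so that reads may be shared between them, and NQO1, a classical NRF2 target, was lower (-0.70). Of 37 lysosomal genes, CTSF (1.10), PSAP (0.62) and CTSB (0.55), 2 proteases and the precursor of the saposins, were higher and 0 lower. Cholesterol and fatty acid synthesis had a median of -0.36, and 2 of 33 genes were lower and 0 higher. STARD4, which carries sterols between membranes, had 312 and 318 in PMD-Sen, 706 and 789 in Ca2+-Sen, and 892 and 567 in untreated cells (-1.24, SE 0.29), and ACAT2, of sterol precursor synthesis, differed by -0.90. HK2, the hexokinase, was lower (-0.61), at 1460 and 1443 in PMD-Sen and 2272 and 2157 in Ca2+-Sen, with 1503 and 1421 in untreated cells. In the ATF4 response WARS1 was higher (0.79) and SLC7A1, the arginine transporter, lower (-0.74). Without PMD-Sen library b, 2 NRF2 genes, 0 lysosomal genes, 1 gene of cholesterol synthesis, 0 of glycolysis and 0 of the ATF4 response were called.

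Interferon-stimulated genes had a median of 0.29, which was -0.01 without PMD-Sen library a, and 2 of 40 were higher, IFITM1 and IFITM3, which block viral entry at membranes. IFITM1 had 611 and 624 in PMD-Sen, 242 and 300 in Ca2+-Sen, and 186 and 160 in untreated cells (1.19, SE 0.29, adjusted p = 0.00366). Replication-dependent histone genes, 18 of 19 with a positive difference, had a median of 0.50. Both treatments had raised them, with a median change against untreated cells of 1.32 in PMD-Sen and 1.00 in Ca2+-Sen. Of the 19, 1 was called, H2AC6, at 2433 and 2358 in PMD-Sen and 1519 and 1481 in Ca2+-Sen (0.67, SE 0.20). PTGS1, the constitutive cyclooxygenase, was higher (0.64). IFITM1 kept its call without PMD-Sen library b, and IFITM3, H2AC6 and PTGS1 did not. Calls numbered 0 among 43 nuclear genes of the respiratory chain, 15 genes of the mitochondrial genome and 74 cytosolic ribosomal proteins. Calls also numbered 0 at an unadjusted p under 0.05 and by limma-trend, which covered 12 of the 15 mitochondrial genes. They numbered 0 among 27 genes of the unfolded protein response and 19 heat shock genes, with 2 lower in each at an unadjusted p under 0.05 and 1 and 0 by limma-trend. The ribosomal proteins differed between the libraries of PMD-Sen, where 2 of 74 were higher in a than in b and the medians against untreated cells were -0.26 and 0.19.

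**Figure D3:**
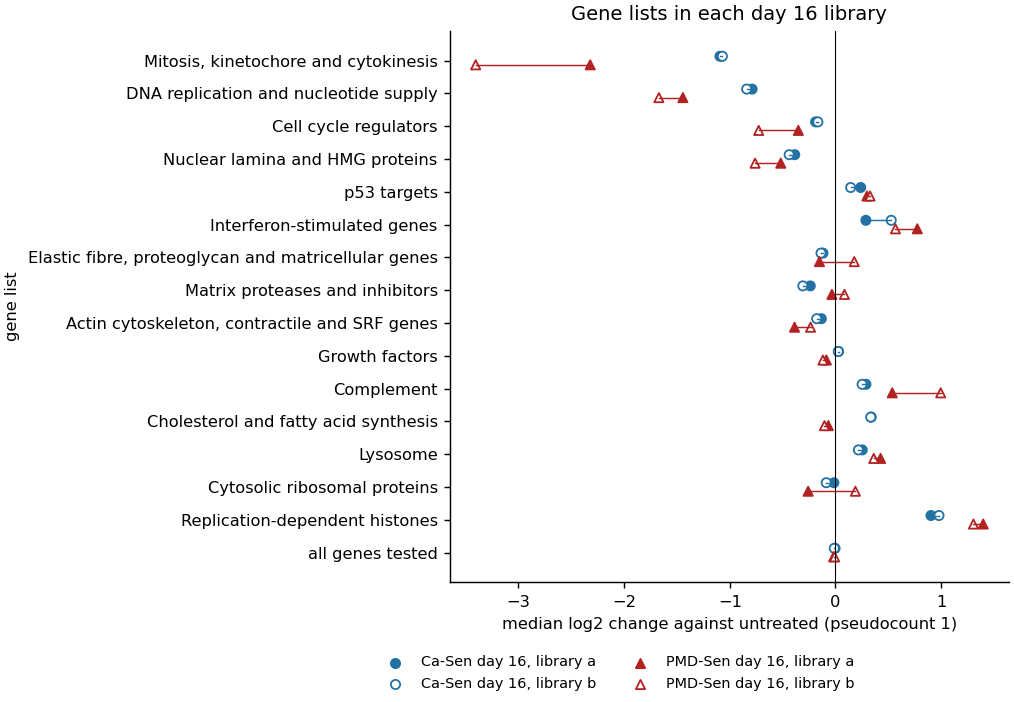
Median log2 change against untreated cells (horizontal axis, pseudocount 1) of gene lists in each day 16 library, with filled symbols for library a and open symbols for library b. Mitosis genes stand at -2.32 and -3.40 in PMD-Sen and at -1.09 and -1.07 in Ca2+-Sen, and the libraries of PMD-Sen lie further apart than those of Ca2+-Sen in mitosis, complement and ribosomal proteins.

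The single largest negative difference among genes with a level of at least 100 and standard errors of at most 0.5 was that of U2AF1. This gene encodes the splicing factor that reads the 3′ splice site. It had 11.7 and 9.08 in PMD-Sen, 119 and 135 in Ca2+-Sen, and 194 and 206 in untreated cells (-3.61, SE 0.43, adjusted p = 1.37e-12). U2AF1L5, a near-identical copy in the annotation, differed the other way, with 465 and 420 in PMD-Sen, 93.6 and 101 in Ca2+-Sen and 109 and 101 in untreated cells (2.18, SE 0.36). Reads of the pair cannot be assigned with certainty, and both values are uncertain. The 5 called genes with a standard error above 0.5 in a table, named after their values were seen, were ELP5 (-4.95), MIEF2 (-4.22), A2M (2.97), TINF2 (-2.92) and CENPF (-2.38). A2M, the secreted protease trap alpha-2-macroglobulin, had 2417 and 6725 in PMD-Sen, 593 and 576 in Ca2+-Sen, and 691 and 824 in untreated cells. ELP5, a subunit of the Elongator complex, had 5.09 and 8.51 in PMD-Sen, 212 and 209 in Ca2+-Sen, and 7.24 and 44.2 in untreated cells.

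The difference between the treatments changed sign along the course. In mitosis genes the median difference between PMD-Sen and Ca2+-Sen was -0.66 on day 0, 0.33 on day 1, 0.13 on day 2, 0.09 on day 3, -0.64 on day 4, -0.28 on day 6, 1.15 on day 8 and -1.64 on day 16. On day 0, 25 of the 63 genes were lower in PMD-Sen and 1 higher, and on day 4, 5 were lower and 0 higher. On day 8, 47 of the 63 genes were higher in PMD-Sen and 0 lower, against 0 and 42 on day 16, beside 1.84% and 1.53% of all 14583 genes called in these directions on day 8. The turn came from both treatments. The libraries of Ca2+-Sen stood at -2.71 and -2.95 against untreated cells on day 8 and at -1.09 and -1.07 on day 16, while those of PMD-Sen stood at -1.62 and -1.61 on day 8 and at -2.32 and -3.40 on day 16. CENPE had 178 and 130 normalized read counts in Ca2+-Sen and 265 and 267 in PMD-Sen on day 8, and 397 and 494 in Ca2+-Sen and 112 and 48.8 in PMD-Sen on day 16. LMNB1 had 132 and 108 in Ca2+-Sen and 291 and 215 in PMD-Sen on day 8, the reverse of day 16. For comparison, the list stood at -4.01 and -4.30 in the libraries of DDR-Sen on day 16, and at -3.56 and -4.50 over 57 genes in RS. LMNB1 was at 27.6 and 36.5 in DDR-Sen and at 32.4 and 14.6 in RS. The cause of the turn was not tested. An exchange of the 2 treatments' labels on day 8 or on day 16 would also turn the sign and was not tested, so the direction of every difference given here rests on the labels.

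**Figure D4:**
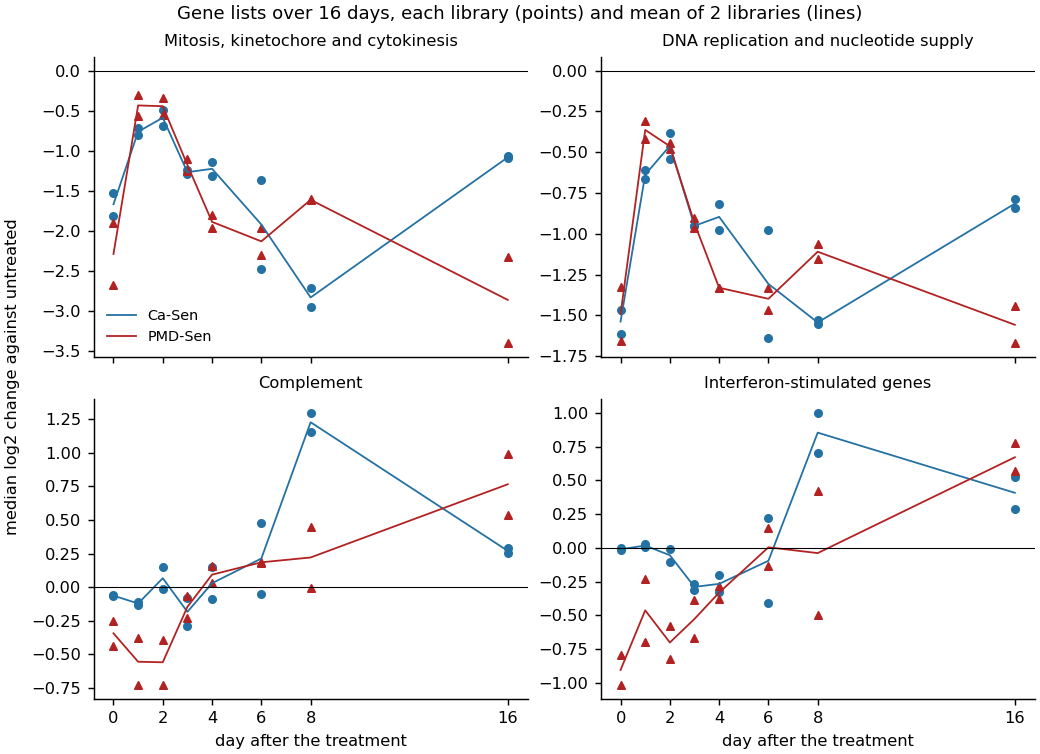
Median log2 change against untreated cells (vertical axes) of 4 gene lists on the 8 sampled days (horizontal axes), with points for the libraries of PMD-Sen (triangles) and Ca2+-Sen (circles) and lines through the mean of 2 libraries. In mitosis genes Ca2+-Sen lies below PMD-Sen on day 8 (-2.71 and -2.95 against -1.62 and -1.61) and above it on day 16.

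Of the 412 genes called on day 16, 134 were also called on day 8, and 131 of these 134 had the opposite sign. On day 8, 3.37% of all genes were called. The change of the difference from day 8 to day 16, tested itself, passed in the upward direction for 2.42% and downward for 3.96% of 14326 genes. The untreated libraries cancel in each difference and the 2 days share no treated library. C1S, for one, had 13389 and 14447 in Ca2+-Sen and 6778 and 3787 in PMD-Sen on day 8. Among the 3 genes called on both days with the same sign were DSP and ANGPT1, a ligand of the TIE2 receptor, named after their values were seen. DSP differed by 0.94 (SE 0.27, adjusted p = 0.0208) on day 8 and by 1.23 on day 16. In PMD-Sen its change against untreated cells was between 0.61 and 1.04 on all 8 days, and in Ca2+-Sen between -0.52 and 0.32. ANGPT1 differed by -0.65 and -0.82 on days 8 and 16. ATP2B1 followed another course: it had 5412 and 5161 in PMD-Sen against 1879 and 2003 in Ca2+-Sen on day 0, 1300 and 1391 against 1618 and 1539 on day 8, and its lowest level in PMD-Sen on day 16. TIMP1 was at 32034 and 36068 in PMD-Sen against 18439 and 18959 in Ca2+-Sen on day 1, did not differ past the threshold on day 8 (-0.02), and was higher in PMD-Sen again on day 16.

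**Figure D5:**
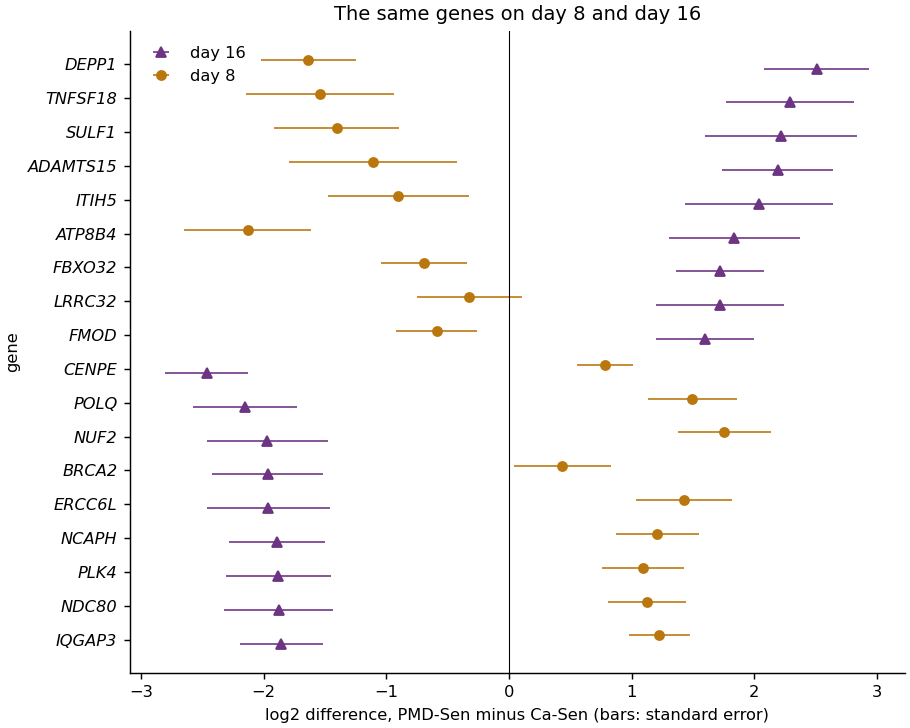
Log2 difference between PMD-Sen and Ca2+-Sen (horizontal axis, bars show the standard error) on day 8 (circles) and day 16 (triangles) for 18 of the 20 genes with the largest differences on day 16, without the U2AF1 pair. Every gene shown has its 2 values on opposite sides of 0, from DEPP1 (-1.64 and 2.51) to IQGAP3 (1.23 and -1.85).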

How the data were processed

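Libraries were made from mRNA of WI-38 cells. Per the submitters' processing notes, reads were handled with Trim Galore, HISAT2, HTSeq, featureCounts and DESeq2 on GRCh38 (hg38), with no versions given. For each treatment and day, the authors deposited a table against the untreated libraries with, per gene, the mean normalized count (a signal over both groups) and a log2 fold change and the standard error of it. Of 25 distinct tables, 18 were used. The tables also hold the p-values of the authors' comparisons, which were not used. There were 0 columns of values for single libraries. The whole reads of each library were therefore recovered as the integers that give the deposited mean and, on refitting a negative binomial model, the deposited log2 fold change within 1e-05. This succeeded for 99.7% (PMD-Sen) and 99.8% (Ca2+-Sen) of genes above the filter, and in a test on drawn reads 1000 of 1000 and 996 of 996 genes were recovered.

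The difference on day 16 was the PMD-Sen minus the Ca2+-Sen log2 fold change, tested (two-sided, normal) against a standard error combined from both tables in quadrature, with Benjamini-Hochberg adjustment over all 14413 genes with a mean of at least 10 in both tables. The 2 libraries of a group are described as separate samples. The deposited standard errors rest on 1 dispersion per gene and table, shared by the treated and untreated libraries. The p-values therefore do not measure the spread between the 2 libraries of 1 group, such as PMD-Sen a and b. In simulated data with 200 of 14348 genes changed, this test called 131, of which 0 were unchanged, and found 53% of changes of log2 1 and 78% of log2 2. The limma-trend alternative called 190, of which 32 were unchanged. The simulated reads of all groups shared 1 dispersion per gene. The first test was given that dispersion, while limma-trend had to estimate the variance. The 2 results therefore cannot rank the tests or measure false calls in the real libraries. The alternatives were another filter, error, scaling, adjustment and test, and each library left out. Limma-trend, the error without its untreated part and the fits with a library left out used only genes with recovered reads. Medians of lists by library used a pseudocount of 1. The genes named were the 10 with the largest difference in each direction among called genes with a level of at least 100 and standard errors of at most 0.5, the 3 largest called members of each list, and CDKN1A, CDKN2A, LMNB1, GDF15, IL6, CCL2 and MKI67. Other called list members, the promoter genes and the genes with larger errors were named after their values were seen, and 1 gene called on both days is not reported here. The comparison, the lists and the rules were chosen with earlier results of these data known. Scripts ran in R 4.3.3 with limma 3.58.1 and in Python 3.11.15 with SciPy 1.17.1, pandas 2.3.3, matplotlib 3.10.9 and NumPy 2.4.6.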

Additional observations from a re-analysis of the deposited data

Results flagged for a closer look

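The difference between PMD-Sen and Ca2+-Sen on day 16 was itself set against that on day 8, as the day 16 difference minus the day 8 difference against the 4 standard errors combined in quadrature, with Benjamini-Hochberg adjustment over 14326 genes. Of these, 346 were higher on day 16 (2.42%) and 567 lower (3.96%). Of the 87 named genes, 78 passed and are given here with the change in log2 units, and in 77 of the 78 the differences on the 2 days had opposite signs, ATP2B1 being the exception. The days share the untreated libraries, which cancel, and no treated library. The named genes were chosen for a large difference on day 16, which is part of the change, so the number that passed is no evidence of a turn. The cause was not tested, nor was an exchange of labels between the treatments. Among genes of mitosis, the changes were NUF2 (-3.726), MKI67 (-3.338), CENPE (-3.245), NEK2 (-3.24), NCAPH (-3.101), NDC80 (-3.004) and PLK4 (-2.971), and of dividing cells outside that list ERCC6L (-3.39) and IQGAP3 (-3.082). In replication and repair they were POLQ (-3.645), MCM10 (-3.154), ORC1 (-2.922), DTL (-2.847) and BRCA2 (-2.4), in cell cycle regulators MYBL2 (-2.962), CDKN3 (-2.861), FOXM1 (-2.764), E2F7 (-2.374) and CDKN2C (-2.288), and in lamina and chromatin proteins LMNB1 (-2.695), HMGA2 (-2.084) and HMGB2 (-1.288). Secreted ligands and inhibitors that moved down from day 8 to day 16 were HBEGF (-2.411), FGF5 (-2.242), IL11 (-2.061), DKK1 (-2.017), FST (-1.844) and EREG (-1.299). Metabolic, ion transport and signalling genes that moved down were ACAT2 (-1.924), FOSL1 (-1.873), SLC8A1 (-1.605), ATP1B1 (-1.567), STARD4 (-1.55), PMAIP1 (-1.379), SLC7A1 (-1.163) and ATP2B1 (-0.7946), and cytoskeletal and surface genes PDLIM5 (-1.727), ITGA2 (-1.134), NT5E (-0.8713) and CALD1 (-0.843).

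Genes that moved up from day 8 to day 16 included matrix, protease and inhibitor genes, with LTBP3 (0.8296), CTSB (0.9068), TIMP1 (1.04), LAMB1 (1.208), CTSF (1.338), TGFBI (1.362), LAMA4 (1.463), PLAT (1.589), COL4A6 (2.136), FMOD (2.19), ADAMTS15 (3.299), SULF1 (3.625) and ITIH5 (2.943). Complement, interferon-stimulated and antioxidant genes were IFITM3 (1.189), SOD3 (2.061), SERPING1 (2.064), AKR1C1 (2.171), GPX3 (2.197), C1S (2.43) and IFITM1 (2.621). Secreted binding proteins and surface molecules were ITGA11 (0.8948), IGFBP4 (1.144), NBL1 (1.475), LRRC32 (2.044), IGFBP2 (2.475) and TNFSF18 (3.829). The others were PSAP (0.7635), PTGS1 (0.9307), TP53INP1 (1.182), SLC6A6 (1.435), RCAN2 (1.684), WARS1 (1.923), FBXO32 (2.416), MYOCD (3.279), ATP8B4 (3.967) and DEPP1 (4.144). The pair of near-identical copies U2AF1 and U2AF1L5, whose reads are uncertain, changed by -5.621 and 3.624.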

How the results depend on the processing

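Of the 14413 genes tested, 412 were called, 114 higher and 298 lower. With a log2 difference of at least 1 also asked for, 195 (53 higher, 142 lower) were called, with Benjamini-Yekutieli adjustment 180 (48 and 132), with the untreated part of the error removed 1600 (591 and 1009), and with limma-trend on the recovered reads 819 (347 and 472), of which 312 were called by the first test. The share of calls that were higher was 27.7% in the first test, 36.9% with the untreated part removed and 42.4% with limma-trend. With 1 library left out, calls ranged from 77 to 513, higher calls from 26 to 132 and lower calls from 44 to 381. The lowest total, 77, came without PMD-Sen library b, and without untreated library a or b 113 and 121 were called, and 73 higher genes without Ca2+-Sen library b. A lone sample was then assumed to vary like the deposited dispersion. Against untreated cells, a log2 change of at least 1 left 512 higher and 557 lower genes in PMD-Sen and 132 and 169 in Ca2+-Sen, and Benjamini-Yekutieli adjustment 845 and 1010, and 519 and 533. Filters and scalings kept the calls within 1.5 times. Of the list medians under the alternatives, 12 changed sign in the 30 lists with a called gene (420 medians) and 12 in the 9 lists without one (126 medians). Among the latter, ribosomal proteins were at -0.198 without PMD-Sen library b and fibrillar collagens between -0.088 and -0.0268 in 7 settings. Those 7 settings used only genes with recovered reads, which 16 of the 21 collagens had. Removing the untreated part of the error leaves each difference unchanged, yet the collagen median there was -0.0756, against 0.02 over all 21. With 1 library left out, the medians without PMD-Sen library b and without library a were -0.0325 and 0.4625 in interleukins, 0.389 and -0.0086 in interferon-stimulated genes, -0.0536 and 0.2075 in ATF4 genes, -0.0885 and 0.2065 in prostaglandin genes, 0.061 and -0.2076 in adhesion receptors, and -0.0683 and 0.1454 in the BCL2 family, and the difference of CCL2 was -0.1747 and 0.4281. NRF2 genes were at -0.0057 without PMD-Sen library b, and at 0.1 and -0.0404 without Ca2+-Sen library a and b. With means of at least 100, prostaglandin genes were at -0.0315 and the BCL2 family at -0.0105, and the IGF axis was at 0.0027 when centred and 0.004 with library totals. Apart from the smaller set of collagens, the cause of the sign changes was not tested. No paired analysis was possible because the recovered libraries cannot be tied to the replicate numbers of the labels, so the fit with a replicate block was not run.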
